A study of Mus musculus with 74 samples.

Results

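The nuclear-encoded genes of the mitochondrial respiratory chain were followed in 5 kinds of immune cell, each sorted from tumors and from spleens of mice aged 3 or 12 months. Members were taken by gene symbol: the Nduf series for complex I, Sdha to Sdhd for complex II, the Uqcr series for complex III, the Cox4 to Cox8 series for complex IV and the Atp5 series for complex V, with symbols ending in -ps left out. The rule found 82 of the 49480 symbols in the count table. Complex I holds 37 of them, complex II 4, complex III 8, complex IV 16 and complex V 17. Names and present assignments differ in a few places: Ndufa4 is today regarded as a subunit of complex IV, Cox7a2l (also called SCAF1 or COX7RP) joins complexes III and IV into supercomplexes, and Atp5s and Atp5sl match by name without being core subunits of the ATP synthase. Ndufab1, Cyc1 and Cox4i1 are true subunits that the symbols miss, and they are described with the other genes of the pathway.

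The respiratory chain oxidises NADH at complex I and succinate at complex II, passes the electrons through complex III and cytochrome c to oxygen at complex IV, and uses the resulting proton gradient to make ATP at complex V. Most subunits are encoded in the nucleus and imported, while a small core set is encoded by mitochondrial DNA, so the complexes need both genomes. Resting and regulatory T cells lean on oxidative phosphorylation, whereas activated T cells and inflammatory myeloid cells raise glycolysis. Succinate handled by complex II is also a signal in macrophages.

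The animals were C57/BL/6J mice aged 3 or 12 months, and the protocol given for all libraries, those of the spleen included, has MC38 tumors, from a mouse colon carcinoma line, grown under the skin and taken on day 10. Each of the 74 libraries was made by Smart-seq2, a full-length cDNA method for few cells, from 1000 cells sorted in a pair of passes. The sorts were macrophages (CD45+CD11b+F4/80+), dendritic cells (CD45+CD11b+CD11c+MHCII+), regulatory T cells (CD45+TCRb+CD4+CD25+), conventional CD4 T cells (CD45+TCRb+CD4+CD25-) and CD8 T cells (CD45+TCRb+CD8+). The 20 groups held 4 libraries, apart from 12-month spleen, 3-month spleen and 12-month tumor dendritic cells and 3-month spleen conventional CD4 T cells with 3, and 3-month tumor conventional CD4 T cells with 2. Replicate 1 of each dendritic cell group was male, 4 libraries in all, and the rest were female. Nothing in the labels states that the libraries of a group came from separate animals, so p-values measure the spread between these libraries, which may be technical. Bulk libraries of sorted cells cannot tell fewer cells of a kind from less RNA per cell.

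Total counts ran from 1652812 to 9115858 per library. The libraries fell into 2 sets that followed the sorted type: the 13 mitochondrially encoded subunits took 0.816 to 2.00% of counts in all macrophage and regulatory T cell libraries and 3.15 to 11.2% in all others, and no label names a batch. Sorting markers followed the labels (Foxp3 889 to 1194 CPM in spleen regulatory T cells, Cd8a 829.5 to 1223 CPM in spleen CD8 T cells), with other cells visible in the myeloid sorts: 10 neutrophil markers summed to 3764 to 39288 CPM in spleen macrophages, and 10 macrophage markers to 3426 to 21471 CPM in tumor dendritic cells. Replicates 1 and 4 of the 3-month spleen conventional CD4 T cells stood apart, with 8.91% and 12.1% of counts on cytosolic ribosomal protein genes against 3.95 to 4.54% at 12 months. Replicates 3 and 4 of the 3-month spleen dendritic cells carry an age tag of 12 months, and their titles were followed.

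Promoter sequence is shown for 4 members whose levels parted between tissues: the complex II pair Sdhb and Sdha, the complex IV subunit Ndufa4 and the supercomplex factor Cox7a2l. The letters are the 250 bases before the RefSeq transcription start (build GRCm38.p6), 5′ to 3′ on the strand of the gene. Capitals mark exact matches on either strand to the NRF1 motif GCATGCGC, the ETS motif CCGGAAG (the kind bound by GABP) or the YY1 motif AAGATGGCG, factors known to drive many respiratory chain genes.
Sdhb promoter, chr4:140961021-140961270, plus strand: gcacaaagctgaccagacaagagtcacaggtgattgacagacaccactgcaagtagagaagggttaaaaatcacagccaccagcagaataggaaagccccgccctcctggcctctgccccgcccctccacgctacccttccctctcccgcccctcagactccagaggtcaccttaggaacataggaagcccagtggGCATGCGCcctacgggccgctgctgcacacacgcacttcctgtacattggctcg
Sdha promoter, chr13:74350241-74350490, minus strand: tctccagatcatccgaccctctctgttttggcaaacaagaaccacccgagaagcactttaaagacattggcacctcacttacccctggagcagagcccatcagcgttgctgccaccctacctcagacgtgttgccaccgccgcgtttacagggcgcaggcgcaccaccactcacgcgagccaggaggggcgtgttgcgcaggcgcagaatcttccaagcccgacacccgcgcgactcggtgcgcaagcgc
Ndufa4 promoter, chr6:11907451-11907700, minus strand: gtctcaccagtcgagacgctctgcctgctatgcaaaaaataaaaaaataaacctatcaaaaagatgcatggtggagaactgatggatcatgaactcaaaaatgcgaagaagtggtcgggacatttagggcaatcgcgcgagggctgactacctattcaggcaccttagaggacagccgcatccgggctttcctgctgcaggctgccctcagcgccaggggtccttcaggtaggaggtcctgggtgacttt
Cox7a2l promoter, chr17:83514334-83514583, minus strand: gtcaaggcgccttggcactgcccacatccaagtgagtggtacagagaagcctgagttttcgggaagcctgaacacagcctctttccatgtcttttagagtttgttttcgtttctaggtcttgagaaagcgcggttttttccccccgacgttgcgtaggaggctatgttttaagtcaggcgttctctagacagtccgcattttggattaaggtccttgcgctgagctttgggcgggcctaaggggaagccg
Among these 4 stretches a match stood in that of Sdhb, an NRF1 motif that began 54 bases before the start, and the letters of the 3 motifs were not found in the others. RefSeq windows that reach 50 bases past the start were matched for 66 of the 82 members, 71 windows in all. The NRF1 motif stood in 10 of the 71 (14.1%) and in 3.51% of the 21262 windows of protein-coding genes. For the ETS motif the shares were 22.5% and 11.6%, and for the YY1 motif 9.86% and 1.83%. A match describes letters in a window and is not a measured binding site.

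Summed over the 82 members, the level ran from 5161 to 16096 CPM (a gene's counts as a share of the library total, scaled to a fixed total). Macrophages held 5161 to 7524 CPM in spleen and 5495 to 7559 CPM in tumor, and the tissues overlapped. Dendritic cells held 6370.1 to 9003 CPM in spleen and 8205 to 10643 CPM in tumor. Regulatory T cells held 7414 to 9238 CPM in spleen and, in most libraries lower, 5176 to 8917 CPM in tumor, with overlap at the top of the tumor range. CD8 T cells held 7064 to 9423 CPM in spleen and 8137 to 11274 CPM in tumor, again overlapping. Conventional CD4 T cells spread the most, with 5705 to 9065 CPM in tumor, and in the 12-month spleen 7216 to 8576 CPM, while the 3-month spleen libraries gave 13228, 7556 and 16096 CPM. Ordered by group mean, the 12-month tumor macrophages were lowest at 5889 ± 325 CPM (SD, n = 4) and, behind the 3-month spleen conventional CD4 T cells, the 3-month tumor CD8 T cells were highest at 10170.0 ± 1125 CPM. The ranges of these neighbours in the order overlapped: 12-month tumor macrophages with 12-month spleen macrophages (5161 to 7524 CPM), and 3-month tumor CD8 T cells with 12-month tumor dendritic cells (9145 to 10643 CPM).

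**Figure D1:**
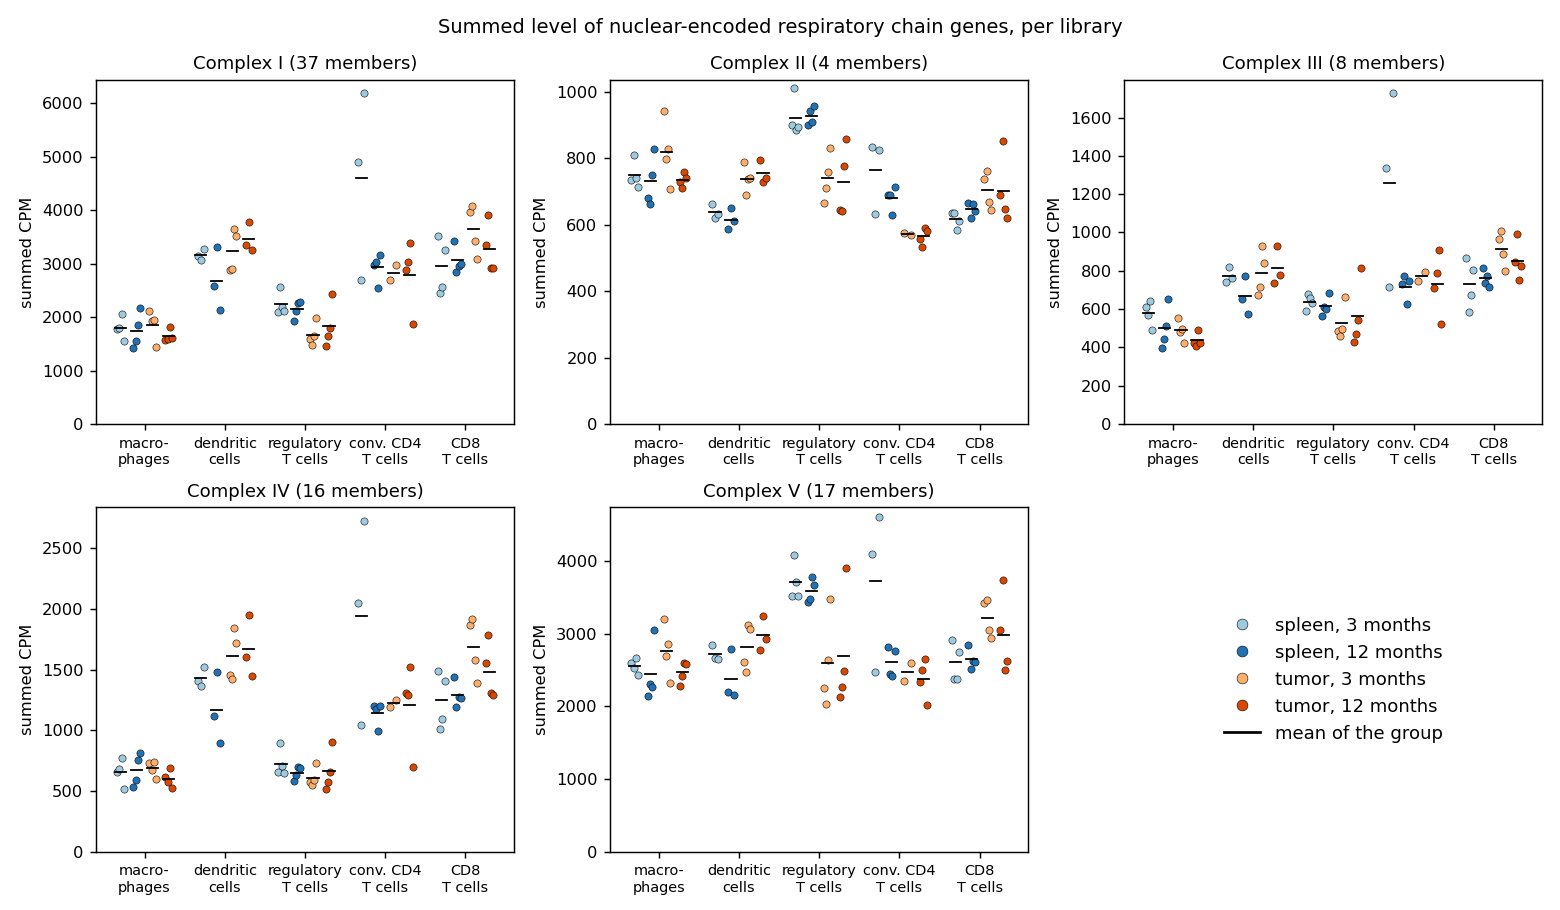
Summed CPM of the members of each complex (vertical axis, from 0) in every library, by cell type, with color for tissue and age and a bar at each group mean. Complexes I, III and IV are lower in macrophages and regulatory T cells than in most other libraries, while complex V peaks in spleen regulatory T cells (3437 to 4083 CPM) and a pair of 3-month spleen conventional CD4 T cell libraries.

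Complex by complex, the types parted in different ways. Complex I summed to 1414 to 2566 CPM over all macrophage and regulatory T cell libraries and to 1877 to 6204 CPM over the others. For complex IV the same ranges were 519 to 903 and 698 to 2727 CPM. Complex II ran the other way and was highest in spleen regulatory T cells, at 884 to 1013 CPM against 585 to 665 CPM in spleen CD8 T cells, without overlap. Within the set, Sdha, the flavoprotein subunit of complex II, lay at 516 to 600.2 CPM (median 553) in spleen regulatory T cells and at 223 to 289.9 CPM (median 249) in spleen CD8 T cells. Atp5a1, the alpha subunit of the ATP synthase catalytic head, likewise lay at 1089 to 1231 CPM (median 1105) in spleen regulatory T cells and at 342 to 432 CPM (median 384) in spleen CD8 T cells.

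These differences between types moved with transcript length and with the mitochondrial share of the library. The 25 members with transcripts under 600 bases summed to 651 to 1271 CPM in macrophages and regulatory T cells and to 1107 to 5048 CPM in the other types. The 20 members with transcripts of 1200 bases or more summed to 2661 to 5206 and 2400.4 to 4587 CPM, ranges that overlap almost wholly. Type, length and the 2 sets of libraries cannot be told apart here, so levels are compared below mainly between tissues and ages of 1 type. In the comparison of all myeloid with all T cell libraries, 26 of 75 tested members were higher in myeloid cells and 12 lower, where 26.6% and 31.2% of the 20244 genes tested were. That split turned to 8 higher and 40 lower when libraries were scaled to their totals, and no gene is named from it. Among the 26 are members that passed the filter on low counts through the dendritic cell libraries. Their calls are no support for a difference.

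**Figure D2:**
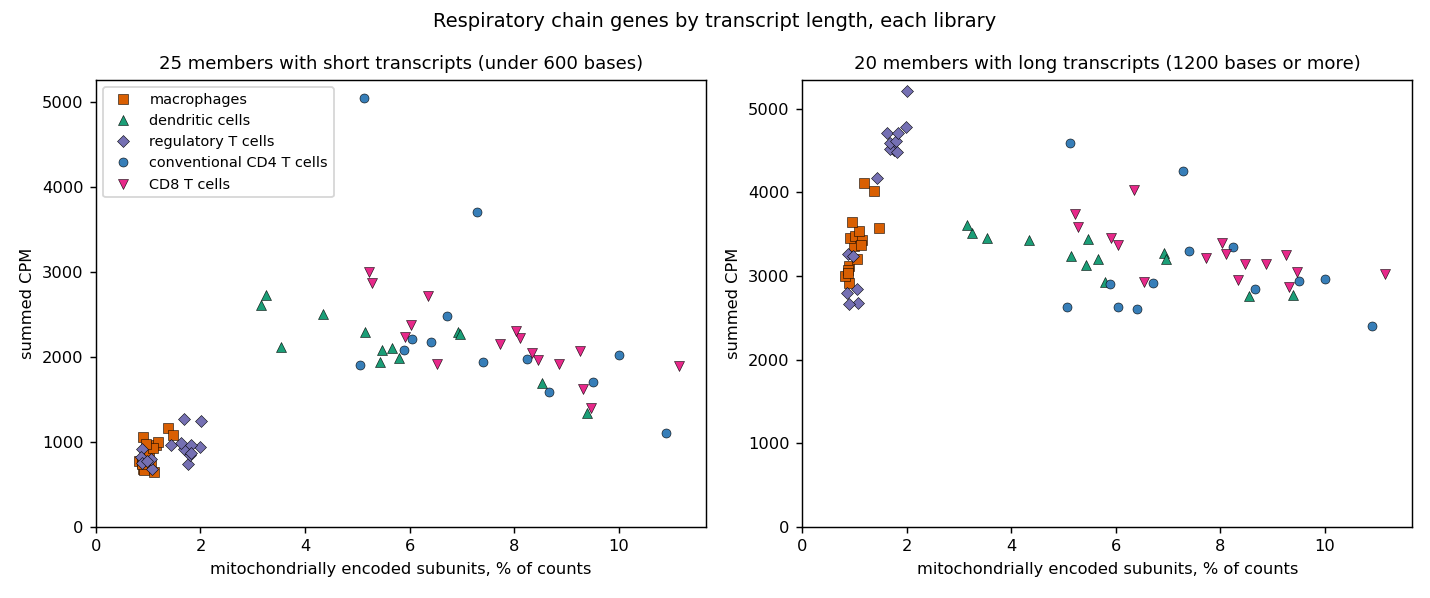
Summed CPM of the 25 members with short transcripts (left) and the 20 with long transcripts (right) against the percentage of counts on mitochondrially encoded subunits, 1 point per library, with a marker per cell type. Macrophage and regulatory T cell libraries sit together at a mitochondrial share of 0.816 to 2.00% and at the bottom of the left panel, and spread over nearly the whole height of the right panel.

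Per kilobase of transcript, the most abundant members differed between the types. As medians over the libraries of a type, Uqcrh, the complex III hinge protein, led in CD8 T cells (526.4 CPM per kb) and conventional CD4 T cells (528 CPM per kb), and Cox8a, the smallest complex IV subunit, led in dendritic cells (445 CPM per kb). In macrophages and regulatory T cells the first 2 were Atp5b, the catalytic beta subunit of the ATP synthase (372 and 528 CPM per kb), and Atp5a1 (275 and 407 CPM per kb), both with long transcripts. Both Ndufs3 and Uqcrc1, core subunits of complexes I and III that every respiring cell uses, gathered 65 and 167 counts over all 74 libraries (0.177 and 0.308 CPM as medians), far under the other core subunits, and the cause was not tested. Those 2, with the muscle or germline forms Cox6a2, Cox6b2, Cox7a1, Cox7b2, Cox8b and Cox8c and the hypoxia-linked Ndufa4l2, were the 9 members that did not pass the filter on low counts in most comparisons, which left 73 tested. In dendritic cells 76 passed for tumor against spleen, Cox6a2, Cox6b2 and Cox7a1 among them.

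Tumor was compared with spleen within each type, over both ages, with edgeR's quasi-likelihood test on TMM-scaled counts and Benjamini-Hochberg adjustment over all genes tested. Dendritic cells showed the widest change: 58 of 76 tested members rose in tumor and 3 fell (Cox7a1, which passed the filter on low counts through the tumor libraries, is 1 of the 58), where 24.4% and 22.7% of all 13981 tested genes did. In CD8 T cells 37 of 73 rose and 3 fell, against 22.5% and 19.6% of all genes. In macrophages 30 rose and 7 fell (all genes 23.9% and 27.8%). Regulatory T cells were split, with 14 higher and 16 lower, which turned to 18 and 14 without 12-month tumor replicate 1 and to 18 and 11 without 3-month spleen replicate 2 (all genes 25.9% and 27.6%). In conventional CD4 T cells none rose and 14 fell (all genes 16.0% higher and 11.2% lower). That count rested on few libraries: without the ribosome-rich 3-month spleen replicates 1 and 4 it was 1 higher (Ndufb7) and 2 lower (Cox7a2l and Sdha), and leaving out 1 library at a time gave 4 (without 3-month tumor replicate 1) to 43 (without 3-month spleen replicate 3). The shares of all genes given here are those of the main fits, and the fit without the 2 libraries left 1 library in the 3-month spleen group. Of the falls given below for this type, those of Cox7a2l and Sdha were called without the 2 libraries. The median log2 fold change of the tested members was 0.58 in dendritic cells, 0.33 in CD8 T cells, 0.26 in macrophages, -0.04 in regulatory T cells and -0.35 in conventional CD4 T cells, beside medians over all tested genes from -0.06 to 0.04.

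These counts depend on how the libraries are scaled. When counts were divided by library totals in place of TMM, the median of all tested genes moved to -0.28 in macrophages, -0.37 in dendritic cells, -0.29 in regulatory T cells, -0.10 in CD8 T cells and 0.00 in conventional CD4 T cells. The members then split into 30 higher and 8 lower in dendritic cells, 30 and 4 in CD8 T cells, 12 and 12 in macrophages, and 4 and 30 in regulatory T cells. CPM values are shares of the library total, so a gene can have a lower CPM and a log2 fold change near 0 in the same comparison. Under all 3 scalings (TMM, DESeq2 size factors and library totals) 30 members were higher and 3 lower in dendritic cells, 30 and 3 in CD8 T cells, 12 and 7 in macrophages, 4 and 16 in regulatory T cells, and 0 and 14 in conventional CD4 T cells. Cox7a1, which passed the filter on low counts through the tumor libraries, is 1 of the 30 higher in dendritic cells under library totals and under all 3 scalings. Unless stated, the log2 fold changes below are from TMM, with standard errors.

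**Figure D3:**
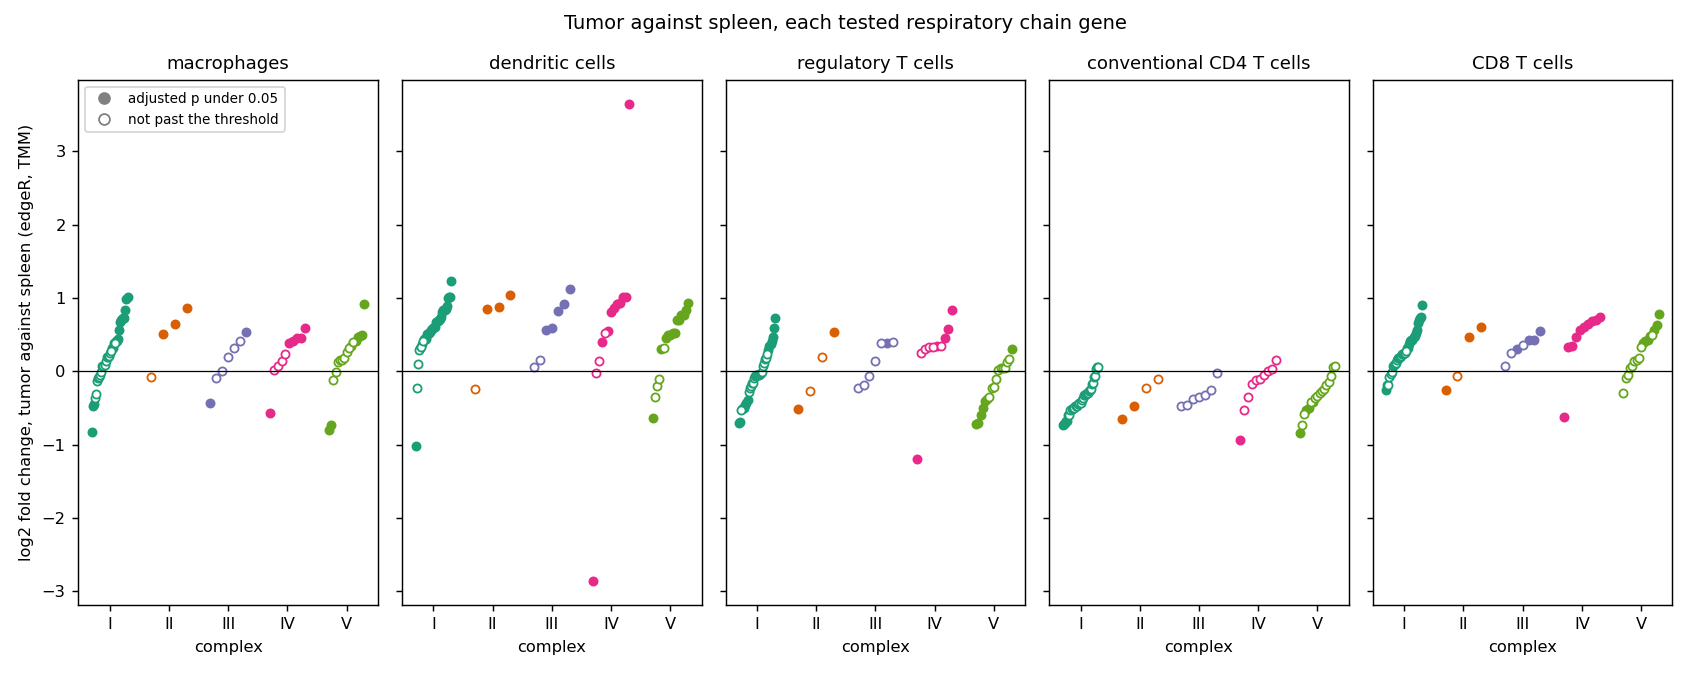
Log2 fold change of tumor against spleen (vertical axis) for each tested member, in a panel per cell type and a column per complex, with filled points for adjusted p under 0.05 and open points for the rest. Of the dendritic cell points 67 of 76 lie above 0 and of the conventional CD4 T cell points 8 of 73, and Cox7a2l, Ndufa4 and Cox6a2 give low points of complexes IV and I.

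Other transcripts moved with tissue beside the members. In dendritic cells 9 of 10 macrophage markers were higher in tumor, with sums of 748 to 999 CPM in spleen and 3426 to 21471 CPM in tumor, and all 8 B cell markers were lower (501 to 3139 against 11.3 to 35.3 CPM). Without the macrophage-rich tumor libraries 57 members rose and 3 fell in dendritic cells, and without the libraries of conflicting age labels 40 rose and 2 fell. The latter fit left 1 library in the 3-month spleen group, and its counts cannot be set against the shares of all genes in the main fit. In macrophages 9 of 9 tested neutrophil markers were lower in tumor (3764 to 39288 against 25.3 to 787 CPM), as were all 8 B cell markers (846 to 2966 against 6.76 to 33.3 CPM), and their part in the member changes was not tested. In the T cell sorts the cytosolic ribosomal share fell from 2.42 to 3.36% in spleen to 0.890 to 1.697% in tumor for regulatory T cells and from 4.48 to 6.75% to 3.00 to 3.98% for CD8 T cells. With that share as a covariate 43 members were higher and 1 lower in regulatory T cells, and 35 and 0 in conventional CD4 T cells. The counts were 41 and 0 in CD8 T cells, 41 and 3 in macrophages and 63 and 3 in dendritic cells. In regulatory and CD8 T cells the share did not overlap between the tissues. There the fit cannot part the share from the tissue, and no conclusion is drawn from its counts.

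The subunits of complex II parted between the tissues. Sdhb, the iron-sulfur subunit, rose in tumor in 4 of the 5 types under all 3 scalings. In dendritic cells Sdhb lay at 155 to 213 CPM (median 195) in spleen and 277 to 368 CPM (median 317) in tumor. The tissues did not overlap, and the log2 fold change was 1.04 ± 0.11 (adjusted p = 2.6e-06). In macrophages it lay at 153 to 191 CPM (median 168) and 203 to 293 CPM (median 223), also without overlap, with a fold change of 0.64 ± 0.10 (adjusted p = 1.4e-05). The changes were 0.61 ± 0.11 in CD8 T cells and 0.54 ± 0.11 in regulatory T cells, both past the threshold, and -0.10 ± 0.15 (adjusted p = 0.68) in conventional CD4 T cells.

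Sdha did not follow Sdhb, although the pair works in 1 enzyme. It fell under all 3 scalings in regulatory T cells, from 516 to 600.2 CPM (median 553) to 295 to 384 CPM (median 327), a log2 fold change of -0.51 ± 0.08 (adjusted p = 1.3e-05) with no overlap of the tissues. It fell too in CD8 T cells, from 223 to 289.9 CPM (median 249) to 183 to 219.6 CPM (median 196), by 0.26 ± 0.08, and in conventional CD4 T cells, where the change was -0.48 ± 0.14 (adjusted p = 0.0129). In dendritic cells (-0.25 ± 0.10, adjusted p = 0.0625) and macrophages (-0.08 ± 0.09, adjusted p = 0.502) Sdha did not pass the threshold under TMM but was called lower under library totals, at -0.58 and -0.30. The ratio of Sdhb to Sdha counts within a library, which no scaling moves, was 0.542 to 0.986 in spleen and 1.54 to 2.65 in tumor dendritic cells, 0.368 to 0.526 and 0.644 to 0.832 in macrophages, and 0.317 to 0.433 and 0.637 to 1.15 in regulatory T cells, without overlap in any of these 3. In CD8 T cells it was 0.658 to 1.12 and 1.12 to 1.91, which overlap at their edge, and in conventional CD4 T cells the ranges overlapped. The pair was chosen after its values were seen, and the Sdha transcript is longer (2900 against 1142 bases). Among the membrane anchors, Sdhc rose the most of complex II in macrophages (0.86 ± 0.13) and fell the most in conventional CD4 T cells (-0.66 ± 0.19), while Sdhd rose in macrophages (0.51 ± 0.11) and dendritic cells (0.85 ± 0.09).

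Complex I, the NADH dehydrogenase, rose in tumor dendritic cells in 29 of 35 tested members and in 15 and 15 of 35 in macrophages and CD8 T cells. Of all tested genes 24.4%, 23.9% and 22.5% rose in these types, in the same order. Ndufb6, an accessory subunit of the membrane arm, led in dendritic cells at 21.4 to 50.6 CPM (median 45.0) in spleen and 52.6 to 88.4 CPM (median 77.5) in tumor, a change of 1.23 ± 0.16 (adjusted p = 1.7e-05). Ndufb7, another membrane-arm subunit, led in CD8 T cells (48.0 to 82.3 CPM (median 65.4) in spleen, 86.5 to 157 CPM (median 112) in tumor), and no tumor library lay below a spleen library. Its change was 0.90 ± 0.13 (adjusted p = 3.8e-06) there and 0.73 ± 0.15 in regulatory T cells, where it was again the highest of the complex. In macrophages the highest was Ndufa12, at 1.01 ± 0.24. Of the core subunits, Ndufs1, which carries iron-sulfur clusters of the electron path, did not pass the threshold in any type under TMM (log2 fold changes from -0.23 to -0.01). As CPM it was lower in tumor dendritic cells without overlap, at 94.1 to 122 in spleen and 57.6 to 84.5 in tumor. Ndufv1, the subunit that binds NADH, rose in dendritic cells (0.59 ± 0.13) and macrophages (0.32 ± 0.12). It fell in regulatory T cells (-0.52 ± 0.12) and conventional CD4 T cells (-0.48 ± 0.16).

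Some members of the Nduf series fell. Ndufs7, a core subunit next to the quinone site, fell in regulatory T cells from 76.3 to 113 CPM (median 99.9) to 39.5 to 56.7 CPM (median 51.9), a change of -0.71 ± 0.10 (adjusted p = 7.4e-06), and fell in CD8 T cells (-0.25 ± 0.10) and conventional CD4 T cells (-0.71 ± 0.20), while it rose in dendritic cells (0.57 ± 0.12). Ndufb11 (-0.48 ± 0.14) and Ndufa6 (-0.45 ± 0.15) fell in tumor macrophages. In regulatory T cells the 7 members that rose (Ndufa1, Ndufa8, Ndufa11, Ndufa13, Ndufb7, Ndufb8 and Ndufb9) did so by 0.29 to 0.73, and of these Ndufb7 alone stayed past the threshold under library totals. Of all tested genes, 25.9% rose in regulatory T cells and 11.2% fell in conventional CD4 T cells. In conventional CD4 T cells 7 fell, Ndufb2 at -0.73 ± 0.23, and none of the 7 was called without the 2 ribosome-rich spleen libraries.

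Ndufa4 fell in both myeloid types, under all 3 scalings. In dendritic cells it lay at 114 to 184 CPM (median 168) in spleen and 30.3 to 89.4 CPM (median 68.2) in tumor, and in macrophages at 36.7 to 81.7 CPM (median 52.4) and 16.9 to 38.0 CPM (median 26.6). All tumor dendritic cell libraries lay below all spleen ones, and among macrophages the ranges overlapped at 1 edge. The log2 fold changes were -1.01 ± 0.20 (adjusted p = 0.00102) and -0.83 ± 0.17 (adjusted p = 3.2e-04), and under library totals -1.34 and -1.05. In the T cells Ndufa4 did not pass the threshold, with 0.27 ± 0.12 (adjusted p = 0.0673) in CD8 T cells, -0.05 ± 0.17 (adjusted p = 0.825) in regulatory T cells and -0.50 ± 0.20 (adjusted p = 0.068) in conventional CD4 T cells. The test of the difference itself, the tissue effect in T cells minus that in myeloid cells, gave 0.80 ± 0.17 (adjusted p = 8.1e-05). Within a library the ratio of Cox5a to Ndufa4 counts was 0.673 to 0.825 in spleen and 1.98 to 6.73 in tumor dendritic cells, and 1.27 to 1.85 and 3.06 to 5.70 in macrophages, without overlap. That pair too was chosen after the values were seen. AA467197 (Nmes1), a paralog of Ndufa4, had 0 counts in all 74 libraries, and Ndufa4l2 had 41. Whether the deposited counts could hold reads of AA467197 was not tested.

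**Figure D4:**
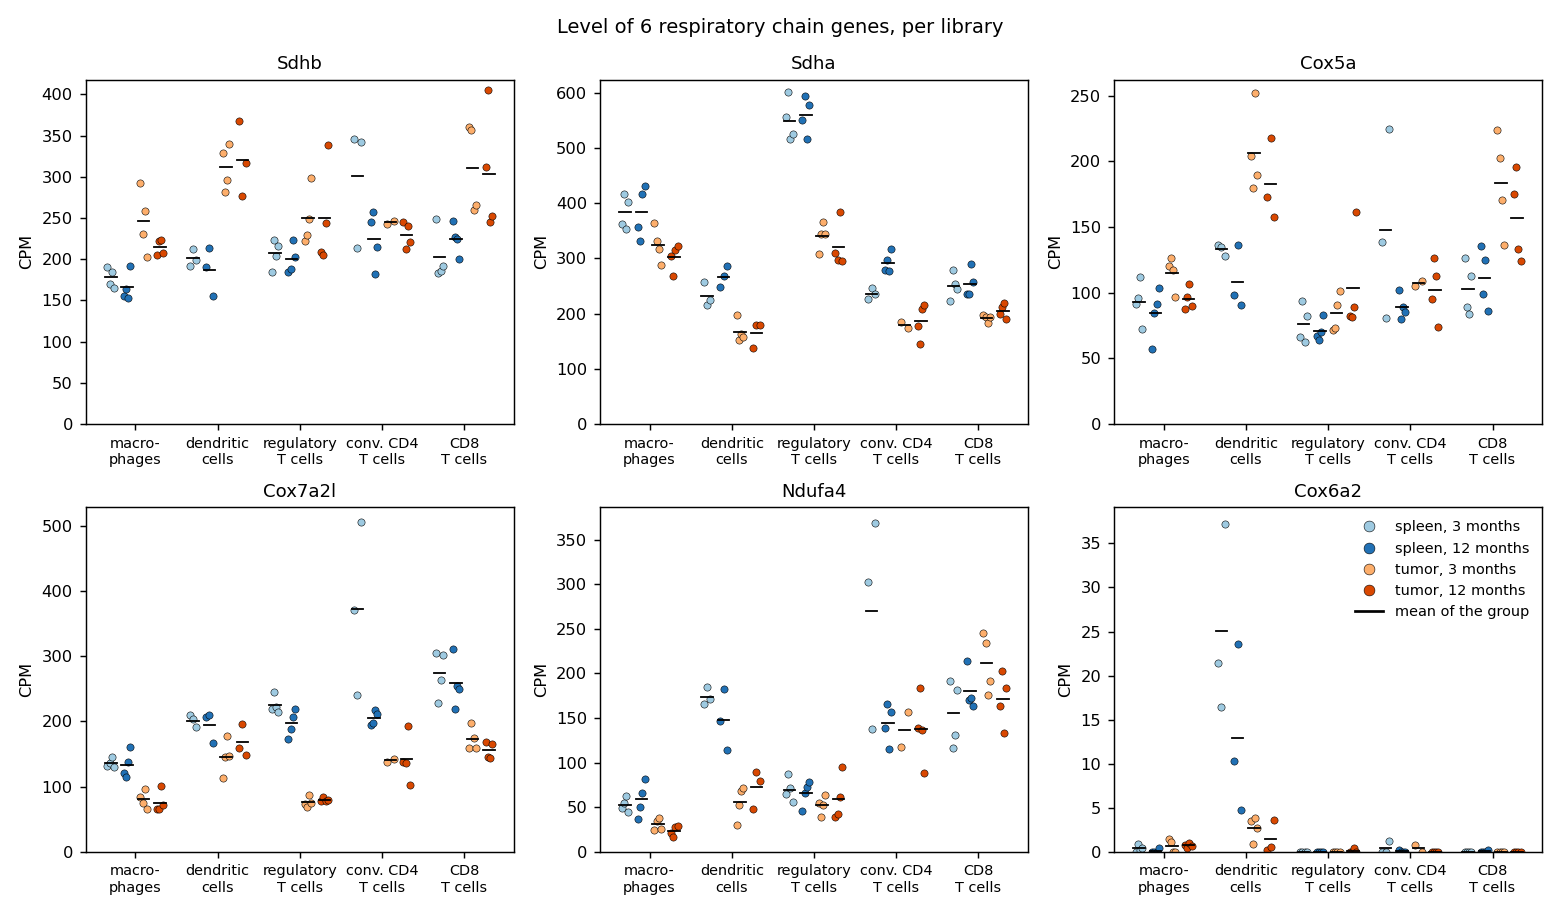
CPM of 6 members in every library (vertical axes, from 0), by cell type, with color for tissue and age and a bar at each group mean. Sdhb is higher and Sdha lower in tumor in most types, Cox7a2l is lower in tumor in all T cells and macrophages, Ndufa4 is lower in the tumor myeloid sorts, and Cox6a2 is seen in dendritic cells, mainly of the spleen.

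Complex III, cytochrome bc1, had 7 tested members, of which 5 rose in dendritic cells and 4 in CD8 T cells. Of all tested genes 24.4% and 22.5% rose there. Uqcrfs1, the Rieske iron-sulfur protein, rose in dendritic cells (0.56 ± 0.12, adjusted p = 0.00189), CD8 T cells (0.42 ± 0.09, adjusted p = 5.0e-04) and regulatory T cells (0.38 ± 0.13, adjusted p = 0.0212), although in regulatory T cells its CPM overlapped widely (132 to 163 CPM (median 149) in spleen, 127 to 237 CPM (median 143) in tumor) and library totals did not call it there or in dendritic cells. Uqcrq, a small subunit of the complex, was the highest in dendritic cells (1.12 ± 0.13) and CD8 T cells (0.55 ± 0.13). Uqcrh fell in macrophages, from 74.7 to 146 CPM (median 123) to 50.8 to 90.7 CPM (median 70.7), a change of -0.44 ± 0.15 (adjusted p = 0.0224), where Uqcrb rose by 0.54 ± 0.18. In CD8 T cells Uqcrh rose by 0.30 ± 0.10. None of the 7 tested members passed the threshold in conventional CD4 T cells.

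Complex IV, cytochrome c oxidase, rose in most tested members of 2 types. In CD8 T cells 9 of 10 rose and 1 fell, where 22.5% of all tested genes rose and 19.6% fell. In dendritic cells 9 of 13 rose and 1 fell, where 24.4% and 22.7% of all tested genes did. Cox7a1, which passed the filter on low counts through the tumor libraries, is 1 of those 9. Cox5a, a subunit on the matrix side, lay at 84.0 to 136 CPM (median 106) in spleen and 124 to 224 CPM (median 173) in tumor CD8 T cells, with some overlap and a change of 0.74 ± 0.13 (adjusted p = 4.3e-05). In dendritic cells it lay at 90.3 to 137 CPM (median 131) and 158 to 252 CPM (median 189.6), without overlap, and changed by 1.01 ± 0.12 (adjusted p = 8.5e-06). Cox5a rose too in regulatory T cells (0.58 ± 0.14) and, under TMM but not library totals, in macrophages (0.46 ± 0.12). Cox8a, the common form of the smallest subunit, rose in regulatory T cells from 69.0 to 122 CPM (median 75.5) to 104 to 159 CPM (median 115), with some overlap, by 0.84 ± 0.13, and in dendritic cells (0.82 ± 0.13) and CD8 T cells (0.71 ± 0.12). Cox7b was the highest of complex IV in macrophages at 0.59 ± 0.15 and rose by 1.01 ± 0.14 in dendritic cells. Of the other common forms, Cox6b1 rose in the same 4 types under TMM, Cox6a1 in dendritic cells and CD8 T cells (0.55 ± 0.15 and 0.34 ± 0.13) and Cox6c in those 2 as well (0.40 ± 0.13 and 0.57 ± 0.13).

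Cox7a2l fell in 4 of the 5 types under all 3 scalings. In regulatory T cells it lay at 173 to 246 CPM (median 217) in spleen and 68.7 to 86.7 CPM (median 78.3) in tumor, in CD8 T cells at 219 to 311 CPM (median 259) and 143 to 197 CPM (median 162), and in macrophages at 114 to 160.3 CPM (median 134) and 65.0 to 101 CPM (median 72.9). The tissues did not overlap in any of these 3. The log2 fold changes were -1.19 ± 0.08 (adjusted p = 1.3e-10), -0.62 ± 0.09 (adjusted p = 8.2e-06) and -0.57 ± 0.12 (adjusted p = 4.0e-04), and conventional CD4 T cells gave -0.94 ± 0.18 (adjusted p = 2.1e-04). In dendritic cells Cox7a2l was -0.02 ± 0.12 (adjusted p = 0.918) under TMM and -0.35 under library totals, which called it lower. Its relative Cox7a2, the ubiquitous form of a complex IV subunit, rose in CD8 T cells (0.60 ± 0.12), dendritic cells (0.86 ± 0.13) and macrophages (0.39 ± 0.16). The ratio of Cox7a2 to Cox7a2l counts was 0.169 to 0.246 in spleen and 0.414 to 1.02 in tumor regulatory T cells, 0.349 to 0.560 and 0.811 to 1.25 in CD8 T cells, 0.361 to 0.528 and 0.760 to 0.953 in conventional CD4 T cells, and 0.453 to 0.775 and 0.918 to 1.28 in dendritic cells. Tumor lay above spleen in every library of these 4 types, and macrophages overlapped. This pair also was chosen after the values were seen.

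Cox6a2, the form of subunit VIa known from heart and skeletal muscle, was counted almost wholly in dendritic cells, with 737 of its 786 counts in those 13 libraries and at most 1.47 CPM elsewhere. It lay at 4.73 to 37.2 CPM (median 18.9) in spleen and 0.156 to 3.79 CPM (median 2.70) in tumor dendritic cells, without overlap, a change of -2.86 ± 0.58 (adjusted p = 0.00132). Siglech, a gene of plasmacytoid dendritic cells named here after its values were seen, lay at 136 to 617 CPM in the spleen and at 0 to 34.6 CPM in the tumor dendritic cell libraries. In the spleen libraries Cox6a2 at 4.73, 10.3, 16.4, 21.4, 23.6 and 37.2 CPM came with Siglech at 157, 136, 238, 394, 264 and 617 CPM. In the tumor, 3-month replicate 2 had 3.51 CPM of Cox6a2 and 0 CPM of Siglech, and 3-month replicate 3 had 0.907 and 24.9 CPM. The sort asked for CD11b, yet Siglech was counted, and the part of plasmacytoid cells in the result was not tested. Cox7a1, the other muscle form, lay at 0 to 1.23 CPM (median 0.0800) in spleen and 1.32 to 2.22 CPM (median 1.48) in tumor dendritic cells. It did not pass the filter in the spleen libraries taken alone, so its call in tumor against spleen is no support for a difference.

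In complex V, the ATP synthase, the catalytic beta subunit Atp5b rose in dendritic cells (0.52 ± 0.09, adjusted p = 3.7e-04) and macrophages (0.49 ± 0.10, adjusted p = 3.8e-04). Its spleen libraries lay at 365 to 556 CPM (median 469) and its tumor libraries at 465 to 576 CPM (median 539.5) in dendritic cells, which overlap. In regulatory T cells the CPM of Atp5b was 991 to 1232 CPM (median 1063) in spleen and 527 to 1109 CPM (median 636) in tumor, and the log2 fold change of -0.35 ± 0.15 (adjusted p = 0.0576) did not pass the threshold under TMM. Atp5a1 fell in regulatory T cells (-0.50 ± 0.14, adjusted p = 0.00392) and in conventional CD4 T cells (-0.42 ± 0.14, adjusted p = 0.0303), and rose under TMM in dendritic cells (0.30 ± 0.10), a direction that library totals turned (-0.03). In regulatory T cells the complex stood at 6 of 17 lower and 1 higher (Atp5d, the delta subunit, 0.30 ± 0.10). Of all tested genes in this type 27.6% were lower and 25.9% higher.

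The 3 genes of the c-ring subunit, Atp5g1, Atp5g2 and Atp5g3, encode the same mature protein. Atp5g1 and Atp5g3 were called in the same direction in dendritic cells, macrophages and conventional CD4 T cells. In regulatory T cells Atp5g1 and Atp5g2 were called but not Atp5g3, and in CD8 T cells Atp5g3 alone was called. Atp5g1 rose in macrophages from 6.38 to 21.1 CPM (median 12.7) to 16.1 to 27.4 CPM (median 21.6), by 0.91 ± 0.20 (adjusted p = 8.2e-04), and in dendritic cells by 0.93 ± 0.15. It fell in regulatory T cells from 22.7 to 32.9 CPM (median 26.9) to 11.5 to 20.5 CPM (median 14.2), without overlap, by 0.71 ± 0.16 on the log2 scale, and in conventional CD4 T cells (-0.85 ± 0.25, adjusted p = 0.0133). The difference of the tissue effect between T and myeloid cells was -1.41 ± 0.17 (adjusted p = 1.7e-10), the lowest of complex V. Atp5g3 rose in dendritic cells (0.76 ± 0.09), macrophages (0.48 ± 0.13) and CD8 T cells (0.48 ± 0.10), did not pass the threshold in regulatory T cells (0.05 ± 0.16) and fell in conventional CD4 T cells (-0.51 ± 0.18). Atp5g2, at medians of 4.18 to 15.6 CPM, fell in regulatory T cells (-0.60 ± 0.24, adjusted p = 0.0416) and gave a change of like size in conventional CD4 T cells (-0.73 ± 0.29, adjusted p = 0.0657) that did not pass the threshold. The lowest members of the complex in macrophages were Atp5l, a membrane subunit (-0.80 ± 0.24), and Atp5sl (-0.74 ± 0.19), which fell in dendritic cells also (-0.64 ± 0.22). In CD8 T cells the called members ran from Atp5j2 (0.38 ± 0.11) to Atp5k (0.78 ± 0.19).

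Of the 13 mitochondrially encoded subunits 8 passed the filter on low counts and were tested. The mitochondrial share of counts given for the libraries therefore rests mainly on those 8. None of them rose in any of the 5 types. In macrophages 3 fell, in dendritic cells 3, in regulatory T cells 7, in conventional CD4 T cells 6 and in CD8 T cells 3. In dendritic cells mt-Nd5, a core subunit of complex I, fell, at -0.69 ± 0.18. Of the subunits missed by the symbol rule, 6 of 7 tested rose in dendritic cells and 5 of 7 in CD8 T cells, Cycs (cytochrome c, 1.01 ± 0.23 and 0.81 ± 0.18) and Atpif1 (the inhibitor of ATP hydrolysis, 0.64 ± 0.16 and 1.17 ± 0.18) among them. Of the 3 true subunits named at the start, Cox4i1, the common form of its complex IV subunit, rose in dendritic cells (0.61 ± 0.11) and CD8 T cells (0.31 ± 0.10), Cyc1 (cytochrome c1 of complex III) rose in dendritic cells (0.43 ± 0.13) and macrophages (0.52 ± 0.11), and Ndufab1, the mitochondrial acyl carrier protein, fell in regulatory T cells (-0.68 ± 0.20). In macrophages 3 of 8 rose, of which Cox4i2, the hypoxia-linked form of a complex IV subunit, changed by 4.48 ± 0.63. A gene with a rise of that size can pass the filter on low counts through the tumor libraries alone. The call of Cox4i2 is therefore no support for a difference. Complex IV assembly factors had 6 higher and 0 lower of 17 in dendritic cells, and complex I assembly factors 1 higher and 7 lower of 14 in regulatory T cells.

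Mitochondrial ribosomal protein genes stood at 41 higher and 0 lower of 77 in dendritic cells, 31 higher and 2 lower of 77 in macrophages, 14 higher and 6 lower of 76 in CD8 T cells, 5 higher and 36 lower of 76 in regulatory T cells and 1 higher and 33 lower of 76 in conventional CD4 T cells. Enzymes of the citric acid cycle other than complex II had 6 higher and 2 lower of 13 in dendritic cells and 1 higher and 4 lower in regulatory T cells. Of the regulators of mitochondrial biogenesis, Tfam, which packages and transcribes mitochondrial DNA, fell in dendritic cells (-0.89 ± 0.14) and macrophages (-0.83 ± 0.17), in lists with 1 higher and 6 lower of 18 and 1 higher and 5 lower of 17. Myc rose in those 2 types (1.19 ± 0.18 and 1.04 ± 0.16) and fell in regulatory T cells (-2.13 ± 0.32), whose list had 2 higher and 7 lower of 17. Coenzyme Q genes had 2 higher and 6 lower of 11 in regulatory T cells. Most glycolysis genes rose in each type, from 14 of 20 genes in conventional CD4 T cells (median 1.04) to 19 of 20 in macrophages (median 1.69), a larger median than that of the members in each type. Of all tested genes, 24.4% were higher and 22.7% lower in dendritic cells, and 23.9% and 27.8% in macrophages. The shares were 25.9% and 27.6% in regulatory, 16.0% and 11.2% in conventional CD4 and 22.5% and 19.6% in CD8 T cells. The falls in the biogenesis list of macrophages and the citric acid cycle list of regulatory T cells lay near those shares. The counts of these lists are from TMM scaling and were not recomputed under the others.

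The tissue effect averaged over the T cell types differed from that averaged over the myeloid types. These averages join unlike types. The member median given above was higher in CD8 T cells than in macrophages, and lowest in conventional CD4 T cells, whose falls rested on few libraries. The contrast was not refitted without both ribosome-rich spleen libraries. In a fit of all libraries, 49 of 75 tested members had a lower and 2 a higher tumor-against-spleen change in T cells than in myeloid cells, where 15.2% and 20.7% of 20244 genes did. The 2 higher were Ndufa4 and Atp5sl (0.47 ± 0.18). The lowest of each complex were Ndufa5 (-1.23 ± 0.19), Sdhc (-1.22 ± 0.14), Uqcr11 (-0.68 ± 0.22), Cox7b (-0.72 ± 0.14) and Atp5g1. The called members nearest to 0 in complexes II, III and IV were Sdha (-0.28 ± 0.08), Uqcrc2 (-0.32 ± 0.11) and Cox5a (-0.36 ± 0.14). Taken by type, Cox5a rose more in CD8 and regulatory T cells than in macrophages. The split was 5 higher and 22 lower with macrophages and regulatory T cells alone, 1 and 49 with the other 3 types alone, and 1 and 24 when every library of replicate 1 was left out. With the ribosomal share as a covariate it turned to 21 higher and 9 lower, and library totals gave 6 and 27.

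By age, members were called in spleen conventional CD4 T cells, where 21 of 73 tested members were lower at 12 than at 3 months and none higher, while 1.96% of the 11726 tested genes were lower. The median over the members was -0.91. Uqcrh lay at 197, 251, 188, 209 CPM at 12 months and at 454, 193, 670.5 CPM in replicates 1, 3 and 4 at 3 months, a change of -1.27 ± 0.31 (adjusted p = 0.0298). Ndufa1, a membrane subunit of complex I, gave 72.4, 80.2, 51.8, 79.7 CPM at 12 months against 151, 72.6, 224 CPM, a change of -1.28 ± 0.30 (adjusted p = 0.0267). Replicates 1 and 4 at 3 months were high in both genes and replicate 3 lay within the 12-month range. Cox6a1 (-1.14 ± 0.29), Cox7b (-0.95 ± 0.26), Ndufa10 (-0.93 ± 0.24), Atp5k (-1.61 ± 0.43) and Atp5h (-0.83 ± 0.22) mark the ends of the called range in their complexes.

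The same list held Ndufa4 (-1.11 ± 0.28), Cox6c (-0.97 ± 0.26), Cox7a2l (-1.06 ± 0.24), Atp5g3 (-1.01 ± 0.26) and Uqcrfs1 (-0.93 ± 0.22). Of 84 tested cytosolic ribosomal protein genes 68 were lower at 12 months in the same comparison. Without the 2 ribosome-rich 3-month libraries (replicates 1 and 4) no member was called and the median was 0.05, a fit that rests on 1 library at 3 months, assumed to vary like the others. With the ribosomal share as a covariate none was called either, and library totals left 2. Leaving out any 1 of the 12-month replicates 1 to 4 or of the 3-month replicates 1 and 4 left 0 called, and leaving out 3-month replicate 3 raised the count to 65. Longer members moved less: Atp5a1 (-0.10 ± 0.20), Sdha (0.13 ± 0.18) and Ndufs1 (0.39 ± 0.20) were not called, and the median was -1.02 over 25 short members and -0.61 over 20 long ones. The test of age by tissue in this type went from 0 to 31 members without 3-month spleen replicate 3.

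**Figure D5:**
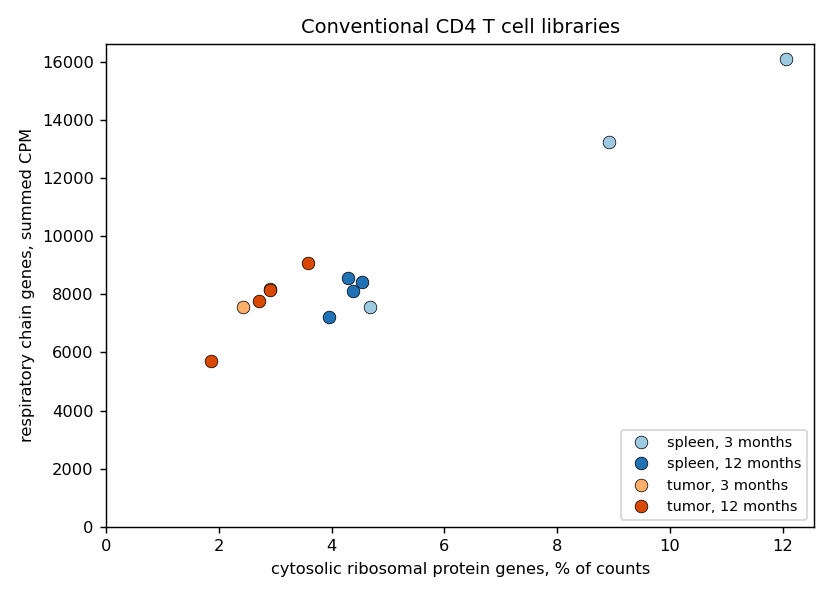
Summed CPM of the 82 members (vertical axis, from 0) against the percentage of counts on cytosolic ribosomal protein genes (horizontal axis, from 0) in the 13 conventional CD4 T cell libraries, colored by tissue and age. The 3-month spleen replicates 1 and 4 stand alone at 8.91% and 12.1% with 13228 and 16096 CPM, and the other 11 libraries (1 tumor point hides another) lie between 5705 and 9065 CPM.

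No member was called by age in any other type or tissue by edgeR, nor by DESeq2 in those comparisons. In spleen the share of all genes called was 0.0% in macrophages, 0.593% in dendritic cells, 0.0489% in regulatory T cells and 1.02% in CD8 T cells. In tumor it was 0.0% in macrophages, 0.0% in dendritic cells, 0.0% in regulatory T cells, 0.0311% in conventional CD4 T cells and 0.0% in CD8 T cells. At an unadjusted p under 0.05 the members in spleen numbered 0 in macrophages, 17 of 75 in dendritic cells, 1 in regulatory T cells and 0 in CD8 T cells, beside 6.07%, 12.1%, 5.33% and 7.78% of all genes at the same threshold. In tumor they numbered 5 in macrophages, 0 in dendritic cells, 0 in regulatory T cells, 0 in conventional CD4 T cells and 2 in CD8 T cells, beside 6.02%, 1.31%, 3.94%, 5.29% and 4.117% of all genes. Spleen dendritic cells had a summed level of 7505 ± 1353 CPM at 12 months and 8734 ± 154 CPM at 3 months (SD, n = 3 each), which overlap, and the member median was -0.24.

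Without the 2 spleen dendritic cell libraries of conflicting age labels, 4 members and 2.38% of all genes were called. That fit sets 1 male library at 3 months, assumed to vary like the 12-month libraries, against 1 male and 2 female libraries, so age, sex and that library cannot be told apart, and no member is named from it. Tumor macrophages had a member median of -0.26 with summed levels of 5889 ± 325 CPM at 12 months and 6622 ± 858 CPM at 3 months (SD, n = 4 each), which overlap. In the test of whether the tissue change differed between the ages none of the members was called in any type, beside 0.0% of all genes in macrophages, 0.0% in dendritic cells, 0.0% in regulatory T cells, 0.668% in conventional CD4 T cells and 0.143% in CD8 T cells. At an unadjusted p under 0.05 that interaction held 2, 5, 1, 32 and 4 members in the same order by edgeR, beside 4.81%, 5.56%, 3.90%, 10.3% and 4.74% of all genes, and DESeq2 too called none. Without the ribosome-rich spleen libraries the 32 in conventional CD4 T cells became 0. A p that misses the threshold does not show that the ages were alike.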

How the data were processed

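Gene counts of 74 Smart-seq2 libraries were used as deposited: whole numbers per gene symbol, not normalized. Per the submitters' processing notes, reads were handled with STAR 2.5.3 and featureCounts on the mouse build mm10. The annotation release, the use of strand and the treatment of reads that map more than once were not given in the sources used here, so reads of overlapping genes and near-identical copies may be shared.

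Members were matched by symbol, and the members and the lists of related genes were chosen with earlier results of these data known. CPM values were counts divided by the library total, scaled to a common size. Transcript lengths came from GENCODE M21 and promoters from the RefSeq table of build GRCm38.p6.

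Each comparison was fitted over all genes that passed edgeR's filter on low counts, with edgeR 4.0.16 (R 4.3.3, limma 3.58.1), TMM scaling, the quasi-likelihood test and Benjamini-Hochberg adjustment, and genes were called at an adjusted p under 0.05. Tissue fits took both ages of a type, age fits 1 tissue of a type, and the contrasts between T and myeloid cells all libraries. Fits that held dendritic cell libraries had a term for sex, except those with a replicate block. Standard errors of log2 fold changes are from the fit, and the code was tested on simulated data. Alternatives were DESeq2 1.42.0, other scalings, no filter, a replicate block, the ribosomal share as a covariate, and fits without single libraries or without libraries that stood apart.

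Named members were fixed landmarks, the highest and lowest called member of each complex at a mean of 10 CPM or more in the higher group, members called against the main direction, and members with tissue-specific paralogs. Genes outside that rule are said to be chosen after their values were seen. In the contrast of levels between myeloid and T cells no gene was named.

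Same-numbered libraries were checked for shared deviations from their group means. Every pair correlated above 0.1 in 1 of 20 comparisons of groups, the ages of tumor regulatory T cells (0.103 to 0.308), and there a replicate block called 0 members as well.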

Additional observations from a re-analysis of the deposited data

Results flagged for a closer look

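Of 90 sums, each over 1 complex or over all members in a group of 4 libraries, 2 had 1 library far from the others, and chance alone marks about 1 in 20 groups. Complex IV summed to 995 CPM in replicate 3 of the 12-month spleen conventional CD4 T cells and to 1175 to 1204 CPM in the other libraries of that group. Complex II summed to 1013 CPM in replicate 2 of the 3-month spleen regulatory T cells and to 884 to 901 CPM in the others.

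The change between tumor and spleen, averaged over types, differed between T cells and myeloid cells in 51 of 75 tested members by edgeR's test of the difference. Of these, 49 were lower in T cells, where 15.2% of all genes were lower and 20.7% higher. The count was 25 when every library of replicate 1 was left out, and with the ribosomal share as a covariate the direction turned to 21 higher and 9 lower.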

How the results depend on the processing

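Most counts of called members kept within 1.5 times of the main count. Under library totals they moved to 38 in tumor against spleen dendritic cells, 24 in macrophages, 33 for the T minus myeloid difference of tissue effects and 2 for age in spleen conventional CD4 T cells, and for myeloid against T levels the direction turned at 48. With the ribosomal share as a covariate the direction turned in tumor against spleen for regulatory (44 called) and conventional CD4 T cells (35) and in the T minus myeloid difference (30), age in spleen conventional CD4 T cells fell to 0 and myeloid against T levels rose to 65. Without the low-count filter age gave 46 in spleen conventional CD4 T cells and 1 in spleen dendritic cells, and age by tissue gave 3 in conventional CD4 T cells. DESeq2 gave 37 for age in spleen conventional CD4 T cells. In conventional CD4 T cells a replicate block left 10 for spleen age and 6 for tissue, on numbers that the check did not show to pair the libraries, and it moved no other count by over 1.5 times. Without the ribosome-rich libraries these counts were 0 and 3. Without the libraries of conflicting age labels 4 members were called by age in spleen dendritic cells.

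Leaving out 1 library at a time gave 0 to 65 for age in spleen conventional CD4 T cells, 0 to 31 for age by tissue in that type (31 without 3-month spleen replicate 3), and 4 to 43 for its tissue change (4 without 3-month tumor replicate 1, 6 without 3-month spleen replicate 4, 7 without 3-month tumor replicate 3, 8 without 3-month spleen replicate 1, 9 without 12-month spleen replicate 1 or 4 or 12-month tumor replicate 1). In the fits of all libraries every library of 1 replicate number was left out at once, which gave 25 (without replicate 1) to 52 for the T minus myeloid difference. For regulatory T cells leaving out 1 library gave 23 to 32, and the direction turned without 12-month tumor replicate 1 (32) and without 3-month spleen replicate 2 (29). An alternative chosen after seeing the data, macrophages and regulatory T cells alone, gave 27 for the T minus myeloid difference.

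Single members turned direction mainly with the ribosomal covariate. By age in spleen conventional CD4 T cells the log2 fold change became 0.11 for Atp5g3, 0.59 for Atp5k, 0.27 for Cox6a1, 0.15 for Cox6c, 0.046 for Cox7b, 0.087 for Ndufa1, 0.11 for Ndufa4 and 0.23 for Uqcrh, and without the ribosome-rich libraries 0.028 for Atp5g3, 0.36 for Atp5k, 0.15 for Cox6a1, 0.041 for Cox6c and 0.063 for Uqcrh. By tissue the covariate gave 0.97 for Atp5a1, 0.46 for Atp5g1 and 0.54 for Ndufv1 in regulatory T cells, 0.67 for Atp5g1, 0.56 for Atp5g3, 0.023 for Cox7a2l and 0.41 for Ndufb2 in conventional CD4 T cells, and 0.0011 for Ndufs7 in CD8 T cells. In the T minus myeloid difference it gave 0.032 for Atp5g3, 0.29 for Cox5a, 0.27 for Cox6b1, 0.41 for Uqcr11 and 0.080 for Uqcrc2. Atp5a1 turned to -0.032 in dendritic cells under library totals, and Cox5a to 0.12 in the difference with macrophages and regulatory T cells alone. The ribosomal share did not overlap between the tissues in regulatory and CD8 T cells, so there the covariate cannot be parted from tissue. The cause of these changes was not tested. Counts under about 10 per library and groups of 2 to 4 libraries limit what could be called.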
